A study of Homo sapiens with 22 samples.

Results

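The genes described here are 131 protein-coding genes in which 50% or more of the piggyBac transposon insertions carried the orientation symbol of the gene's own strand, against a median of 28.0% over all genes tested. They were chosen by that share, measured over 20 libraries, among the 6150 protein-coding genes of chromosomes 1 to 22 (of 19111) that overlap no other annotated gene, of which 1900 held at least 500 insertions when 20 libraries were pooled. The 131 are 6.89% of those 1900 genes. The 588 genes at 20% or less (30.9%) served as the comparison group, and the remaining 1181 genes lay between. The share itself chose the members, so it is given as a description and no test is made on it.

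The libraries are Calling Cards libraries from K562, a human leukemia cell line with erythroid features. Cells were electroporated with a barcoded self-reporting piggyBac transposon that carries puromycin resistance and with a plasmid for its transposase, then kept in puromycin for 11 days. The transposase was hyPBase, a hyperactive form of piggyBac, in 10 libraries and hyPBase-centrip in the other 10. Both names are spelled as in the growth protocol, and the sample titles write WTHYPB and WTHYPBcentrip. RNA was pooled over 3 transfections at a time, so a library is a mixture of many independently modified cells. A further 2 libraries carry labels that disagree on the transposase, and the word ClarkMut in the names of their deposited tables is not explained in the sources used here, so their construct may differ. They entered no comparison between helpers and served only as libraries that had no part in choosing the genes.

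The piggyBac transposase inserts its cargo into the sequence TTAA and can leave it in either orientation, because TTAA reads the same on both strands. A self-reporting transposon holds a promoter whose transcript runs out of the transposon into the neighbouring genome, and the junction is read from the polyadenylated RNA. An insertion is therefore seen only where such a transcript was made and recovered. Unfused piggyBac is known to insert often at enhancers and promoters. In what follows 1 insertion is 1 line of the deposited tables, that is 1 position, orientation and barcode in 1 library, and the gene-orientation share is the percentage of a gene's insertions whose orientation symbol equals the annotated strand. The sources used here do not say to which end of the transposon that symbol refers, and no RNA abundance of the genes was measured, so neither the expression of a member nor the cell line's own markers could be checked.

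The libraries held 1509672 to 2911515 insertions with hyPBase and 1638175 to 3596762 with hyPBase-centrip, at means of 2.23 to 5.39 reads each. All of them used 26 barcodes. Pairs of libraries of 1 helper differed in their counts per gene by about as much as sampling alone gives (median chi-square per degree of freedom 0.985 over 90 pairs, range 0.885 to 1.57). Intervals given for shares are Wilson 95% intervals and cover counting error only. An insertion total of 500 gives an interval of several percentage points on either side of 50%.

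The sites below are shown because each is the TTAA with the most insertions in its gene, first in 6 members with many insertions and then, for contrast, in the 3 genes at 20% or less with the most insertions. Each is given on the plus strand of hg38, with the TTAA in capitals and 13 bases on either side. The contrast genes were added after their values had been seen.
SPATA16: ataataatctcatTTAAaatcatagagttc
NR4A2: gatgccttattctTTAAtaacaacctgtcg
RHAG: ctataaaacttatTTAAtcaagaaccctct
TMEM244: caacactctctttTTAAaagtatgaaaact
TMEM156: cgaatgaatgctcTTAAgctagttttcatc
PALMD: cagctgtcctgctTTAAgggacaggaactc
MAPK8: ggaggcgcatataTTAAtaccagcagagca
AFDN: catacatgttctaTTAAaggaaaatcaggc
USP24: gagctcactctctTTAAtaatagaacagac

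Each of these sites was hit in all 10 libraries of each helper, and both orientations were recovered at each. The NR4A2 site (chr2:156335192-156335221, in an intron) held 716 insertions, 369 in the gene's orientation and 347 in the other. The RHAG site (chr6:49635554-49635583, intron, 1269 bp from the gene start) held 311 and 298, and the PALMD site (chr1:99647628-99647657, intron) held 348 and 302. These 3 sites were near balance in both helpers, with 50.2% to 53.7% in the gene's orientation. The TMEM244 site (chr6:129851589-129851618, intron) leaned to the gene's orientation with 253 of 393. The TMEM156 site (chr4:38967479-38967508, in an untranslated region) leaned the other way with 252 of 586.

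The most used site of a member did not always share the gene's balance. The SPATA16 site (chr3:173006611-173006640, intron) had 122 of 434 insertions in the gene's orientation, although the gene as a whole had 51.4%. In the contrast genes the sites had 86 of 350 (MAPK8, chr10:48430491-48430520, exon), 86 of 400 (AFDN, chr6:167833475-167833504, intron) and 96 of 280 (USP24, chr1:55211246-55211275, intron). Over all 131 members the busiest TTAA had a median of 63.7% of its insertions in the gene's orientation (quartiles 51.9% and 76.3%), against 3.30% in the genes at 20% or less (quartiles 0% and 14.8%). It was at 10% or less in 2 of 131 members and in 406 of 588 genes of the comparison group. These insertions are among those that set the share, so the contrast follows in part from the choice of genes.

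**Figure D1:**
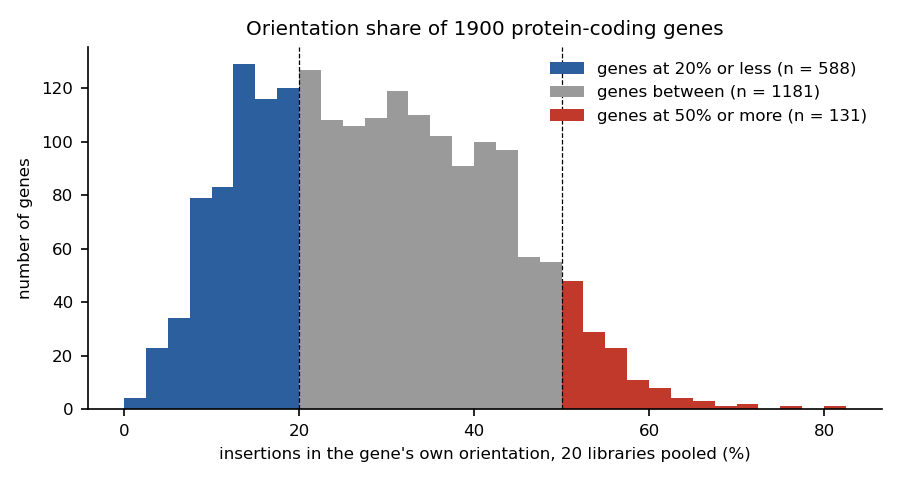
Number of protein-coding genes by the percentage of their insertions in the gene's own orientation (20 libraries pooled, bins of 2.5 percentage points). The dashed lines stand at 20% and 50%, and the 131 members form the thin right end of a single broad distribution of 1900 genes.

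Most members sat close to balance and few leaned strongly to their own orientation. The median share of the members was 53.5% (quartiles 51.8% and 57.2%), 54 of 131 were at 55% or more, 20 at 60% or more and 4 at 70% or more. At the threshold, TXNDC2 (a thioredoxin-domain protein of the sperm tail) at 50.0%, ATP6V1G3 (a vacuolar proton pump subunit) at 50.2% and HNRNPA0 (an RNA-binding protein) at 50.2% were just inside. SHLD1 (a shieldin subunit of DNA break repair) at 49.9%, OR52A1 (an olfactory receptor) at 49.8% and COX7B2 (a cytochrome c oxidase subunit) at 49.8% were just outside. No gap separated the members from the genes below them.

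Some members leaned clearly to their own orientation. H2BC21, which encodes a histone H2B (chr1:149884459-149886682), had 80.2% (95% interval 77.1% to 83.1%, 668 insertions). Its share ran from 66.7% through a median of 77.9% to 100% in the hyPBase libraries and from 75.8% through 82.5% to 89.3% in the hyPBase-centrip libraries. CYB561, an electron-transfer protein of secretory vesicles (chr17:63432304-63446354), had 76.5% of 926 insertions, with 68.8%, 74.0% and 86.0% as the lowest, median and highest hyPBase library and 69.7%, 76.9% and 88.4% for hyPBase-centrip. C10orf71 had 68.3% of 1081 insertions, and CHCHD4, an import factor of the mitochondrial intermembrane space, had 66.7% of 757. These 4 genes were above 50% in each of the 20 libraries, and their helper ranges overlapped.

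The members with the most insertions were nearer to balance but precisely measured. SPATA16, a gene of sperm acrosome formation (chr3:172889357-173141235), held 12375 insertions at 51.4% (95% interval 50.5% to 52.2%), and its libraries ran from 49.7% through 51.0% to 54.2% with hyPBase and from 48.7% through 51.5% to 53.3% with hyPBase-centrip. NR4A2, an orphan nuclear receptor (chr2:156324437-156342348), held 9762 at 51.7% (47.9%, 50.3% and 55.8% with hyPBase, 48.9%, 52.5% and 55.9% with hyPBase-centrip). ZMAT4, a zinc finger gene, held 9517 at 50.9%. TMEM244, a transmembrane protein gene (chr6:129831244-129861547), was higher with 59.9% of 6891 insertions and no library below 55.8%, and POM121L2, a relative of a nuclear pore protein, was like it with 59.7% of 4620 and no library below 53.8%. TMEM156 (50.5% of 6783), PALMD, which encodes palmdelphin (52.2% of 5369), the olfactory receptor OR52A5 (51.7% of 5029) and KRCC1 (51.3% of 3679) had libraries on both sides of 50%. KCNE4, a potassium channel subunit, had 56.8% of 3221 and was at or above 50% in 19 libraries, as was VSNL1, a neuronal calcium sensor, with 58.0% of 2866.

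**Figure D2:**
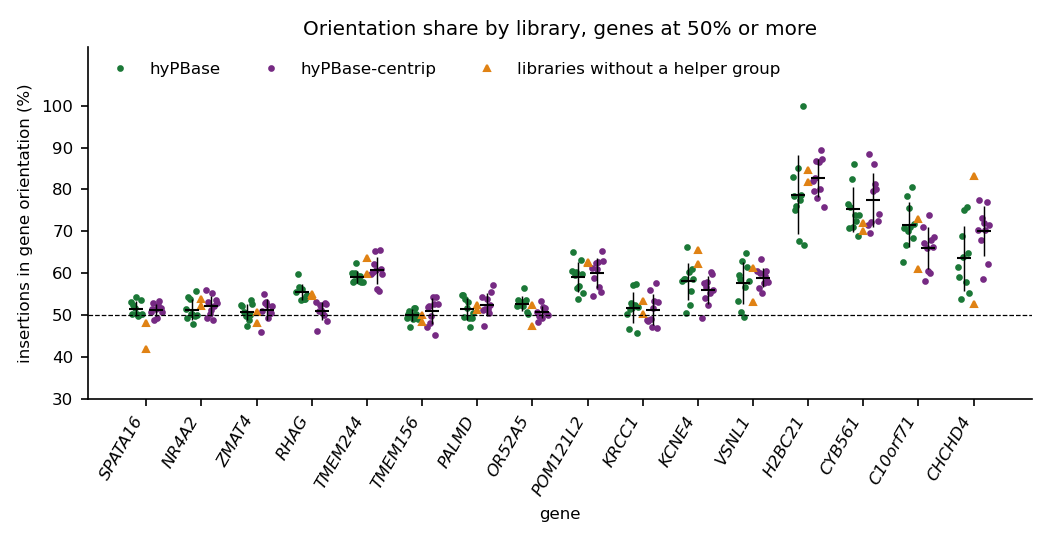
Gene-orientation share (%) in each library for the 12 members with the most insertions (left) and 4 with high shares (right); each dot is 1 library, bars are the mean ± SD of the 10 libraries of a helper, and triangles are the 2 libraries without a helper group. The left genes lie around the dashed line at 50% except TMEM244, POM121L2, KCNE4, VSNL1 and the hyPBase libraries of RHAG, and the right genes lie above it with a wider spread.

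A member was at 50% or more in a median of 15 of the 20 libraries (quartiles 13 and 17). It was so in every library for 13 members and in at least 15 libraries for 76. The genes at 20% or less were at 20% or less in a median of 18 libraries, and 203 of 588 in all 20. The SD of the share over the 20 libraries had a median of 7.13 percentage points in members and 4.33 in the comparison group. Set against binomial counting, the variance between libraries was 0.940 times (median) that of counting alone in members and 1.01 times in the comparison group. The library with the fewest insertions held a median of 24 in members and 29 in the comparison group. The member that was at 50% or more in the fewest libraries was ZNF782 (8 of 20), named here after its values were seen.

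The 2 libraries that had no part in the choice, whose transposase is uncertain, were read in the same way. Together they put 95 of 131 members (72.5%) at 50% or more, and each of them separately put the same gene at 50% or more for 72 members. Of all 1900 genes 7.84% were at 50% or more in these libraries. The median member share there was 53.7% (quartiles 49.1% and 59.5%). None of the genes at 20% or less reached 50%, and 489 of 588 stayed at 20% or less, against 28.8% of all genes tested. H2BC21 had 81.8% and 84.6%, CYB561 70% and 71.9%, and TMEM244 59.8% and 63.7%. SPATA16 was below 50% in both (48.2% of 519 insertions and 42.0% of 371).

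**Figure D3:**
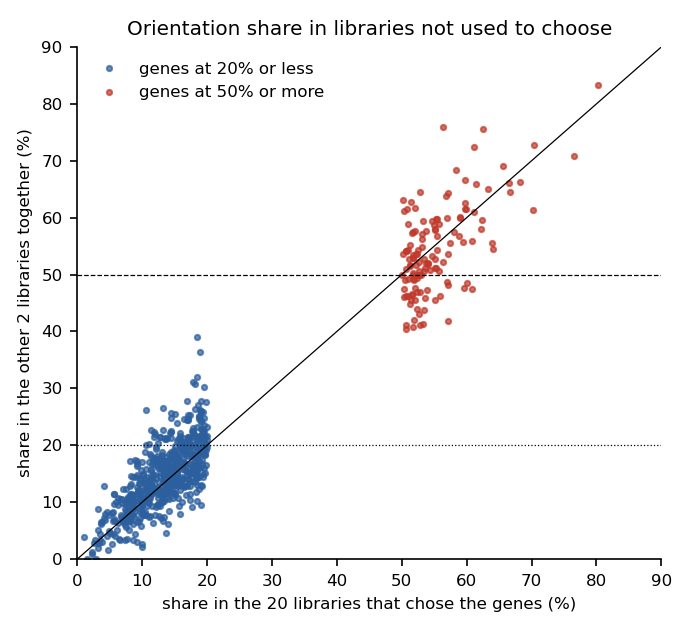
Gene-orientation share (%) in the 20 libraries that chose the genes (x axis) and in the other 2 libraries together (y axis); each point is 1 gene, with the line of equality. The comparison group stays below 50% throughout, while 36 of the 131 members fall below the dashed line at 50%.

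Members were shorter and poorer in TTAA than the other genes, when insertions were counted as deposited. The minimum of 500 insertions counts both orientations, so a member could pass it with fewer opposite-orientation insertions than a comparison gene. A short gene could thus enter the members partly through the orientation that chose them. Their median length was 31709 bp against 40464.5 bp in the genes at 20% or less and 47901 bp over all genes tested. Under 20 kb were 45 of 131 members (34.4%) against 95 of 588 (16.2%) and 15.3% of all. The longest members were ZMAT4 (367244 bp), SPATA16 (251879 bp), PPP2R2C, a phosphatase regulatory subunit (243023 bp, 51.8%), and ADAMTS2, a procollagen protease (234609 bp, 52.8%). Among the shortest were CHCHD1, a mitochondrial ribosome protein (1606 bp, 56.9%), H2BC21 (2224 bp) and TXNDC2 (3510 bp). TTAA sites numbered 4.98 per kb in the median member, 7.67 in the comparison group and 6.95 over all genes. The median GC content was 45.2%, 39.8% and 40.9%, and within each of 4 length classes the members had fewer TTAA per kb and a higher GC content than the genes at 20% or less.

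Members also held more insertions per TTAA site. The median was 7.79 insertions per site over the 20 libraries, against 4.17 in the genes at 20% or less and 4.25 over all genes. Split by orientation, the members had 3.28 insertions per site in the opposite orientation, against 3.62 in the comparison group and 3.11 over all genes. In the gene's own orientation they had 4.14 against 0.539 and 1.04. The own-orientation values restate the share that chose the genes. At a like density in the opposite orientation, a share of 50% or more makes the total higher by construction. The share of TTAA sites hit at least once was alike, at medians of 69.5% and 69.0%. The densest members were CHCHD1 (104.4 per site over 5 sites), TXNDC2 (102.4), CCDC115, an assembly factor of the vacuolar proton pump (77.9, share 57.1%), and FUT1, the H blood group fucosyltransferase (72.4, share 52.6%). The sparsest were CXCL13, a B-cell chemokine (0.942, share 56.4%), C6orf58 (0.983, 50.7%), PLCXD3 (1.01, 55.2%) and C1orf87 (1.02, 52.7%).

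The density difference held only in shorter genes, and the threshold of 500 insertions admits a short gene only where it is dense. Under 20 kb the medians were 17.3 per site in members and 8.16 in the comparison group, and from 20 to 50 kb they were 7.32 and 4.18. From 50 to 100 kb the order was the other way, 2.80 against 3.47, and at 100 kb or more 2.32 against 2.72. In the opposite orientation alone the medians were 7.18 and 7.20 under 20 kb and 3.28 and 3.69 from 20 to 50 kb, but 1.35 and 2.95 from 50 to 100 kb and 1.08 and 2.30 at 100 kb or more. Repeated barcodes at 1 position and orientation were then collapsed within a library, and the minimum of 500 insertions was applied again. Of the genes that passed, 57 were at 50% or more, and neither difference stood. The medians were 54958 bp against 47449 bp in length and 2.85 against 2.80 insertions per site. Without applying the minimum again, 78 of the 131 members stayed at 50% or more under that counting, and the median member share was 51.0%. With each position and orientation counted once over the pooled libraries, 55 of the 131 stayed at 50% or more. Their median share over all 131 was then 48.7%. The order of the densities turned with a minimum of 1 insertion per gene (2.86 against 3.23) and with each position and orientation counted once over the pooled libraries (0.68 against 0.704). Under the latter counting, with the minimum of 500 applied again, only 5 genes were at 50% or more. The order of the lengths turned under the latter counting too (160752 bp against 107091 bp), and without the first and last 5 kb of each gene (57121 bp against 55239.5 bp) and without its densest 1 kb (50044 bp against 45834 bp).

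**Figure D4:**
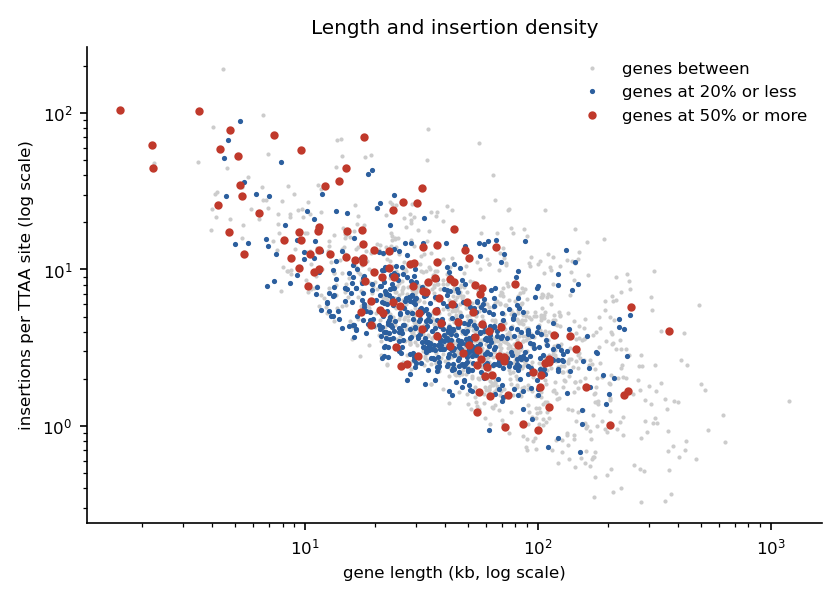
Gene length (kb) against insertions per TTAA site over 20 libraries, both on log scales, 1 point per gene. The lower left edge is set by the minimum of 500 insertions; members are frequent among short dense genes and are spread through the comparison group at 50 kb and above.

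Insertions in members were more concentrated than in the comparison group. The densest 1 kb of a member held a median of 27.4% of its insertions, against 15.3% in the genes at 20% or less and 14.5% over all genes, and it held 50% or more in 26 of 131 members (19.8%) and 22 of 588 comparison genes (3.74%). The same order stood in each length class, from 48.4% against 31.7% under 20 kb to 9.02% against 7.13% at 100 kb or more. Within that 1 kb the median gene-orientation share was 62.6% in members and 4.28% in the comparison group. That contrast too follows in part from the choice of genes, as these insertions helped to set the share. Without it the median member had 51.9%, and 83 of 131 members stayed at 50% or more, with the minimum of 500 insertions not applied again. FUT1 had 73.5% of its insertions in 1 kb, at a share of 63.3%, and the rest of the gene had 23.1%. C10orf71 had 55.9% of its insertions there, at a share of 86.8%, and 44.9% elsewhere. H2BC21 had a share of 87.4% outside its densest 1 kb, and CYB561 had 58.9%.

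Along the gene, members leaned to their own orientation at both ends. Each gene was cut into 10 equal segments from start to end. Pooled over members, the share was 57.1% in segment 1, 58.3% in segment 4, 48.8% to 50.9% in segments 5 to 8 and 58.2% in segment 10. Taken as a median over the genes with at least 20 insertions in the segment, it was 58.1% in segment 1, 45.5% to 52.2% in segments 2 to 9 and 54.5% in segment 10. In the genes at 20% or less the pooled share was 10.4% in segment 1, at most 15.7% up to segment 9 and 35.1% in segment 10. In the last 1 kb before the annotated end the comparison group reached 50.2% and the members 61.8%. From 10 to 20 kb before the end the values were 9.15% and 50.7%. In insertions per TTAA site, segment 1 held 5.91 in the gene's orientation and 4.44 in the opposite one in members, and 1.03 and 8.90 in the comparison group.

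In most members only 1 part of the gene was at 50% or more. Both the first 5 and the last 5 segments were at 50% or more in 37 of 131 members (28.2%), the first alone in 56 (42.7%) and the last alone in 38 (29.0%). Over all genes tested these were 1.95%, 7.47% and 8.05%. These parts hold the insertions that chose the genes, so a share of 50% or more puts at least 1 part there by construction. TMEM244 had 68.1% in the first part and 38.6% in the last, NR4A2 52.0% and 27.1%, RHAG 55.9% and 25.4%, CHCHD4 75.2% and 19.8% and C10orf71 83.2% and 17.8%. CYB561 was the reverse with 37.2% and 83.7%, and SPATA16 (55.7% and 49.4%) and POM121L2 (51.6% and 60.7%) differed less.

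**Figure D5:**
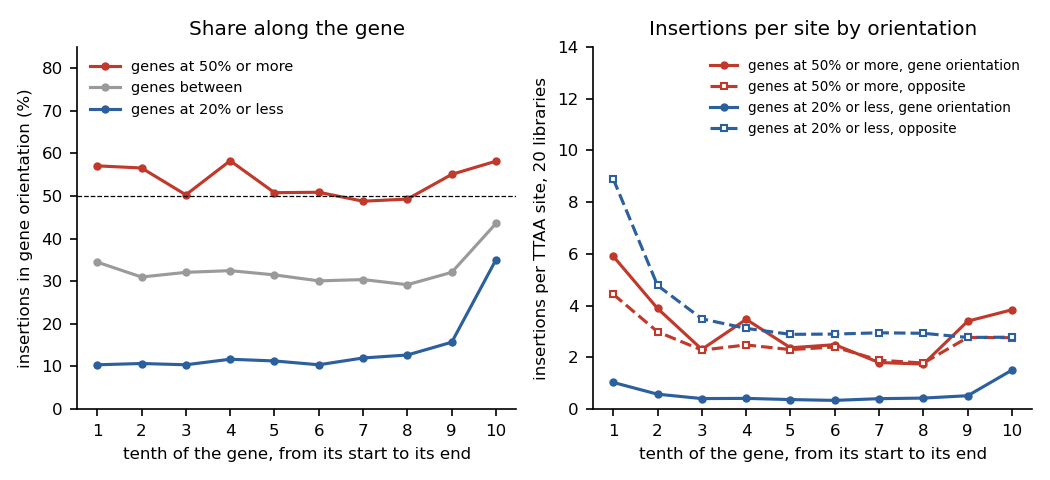
Left, percentage of insertions in the gene's own orientation in each of 10 equal segments of the gene, pooled over genes of a group and 20 libraries. Right, insertions per TTAA site in each segment, split by orientation; in members the orientations lie close together in segments 3 (2.31 and 2.28) and 8 (1.74 and 1.78) and apart in segment 4 (3.47 and 2.48), while the comparison group has few insertions in the gene's orientation except near the end.

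Runs of T on the gene strand were rarer in members. Runs of at least 10 T numbered 14.8 per 100 kb in the median member, 30.9 in the genes at 20% or less and 24.3 over all genes, whereas runs of at least 10 A were alike (17.6, 16.9 and 16.4). A gene held more A runs than T runs in 63 of 131 members (48.1%), 91 of 588 comparison genes (15.5%) and 24.6% of all genes. The T-run difference was present in each length class, with medians of 16.9 against 25.4 under 20 kb, 18.3 against 32.7 from 20 to 50 kb, 13.5 against 31.2 from 50 to 100 kb and 13.1 against 28.4 at 100 kb or more. GC content differed between the groups in the same classes, and its part in the T-run difference was not tested. The exonic part of the gene was alike, at medians of 12.3% and 13.8%.

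Insertions in the flanks were not used to choose the genes. In the 20 kb before the gene start, with orientation read relative to the gene, the median share was 52.6% in members, 44% in the genes at 20% or less and 47.7% over all genes. The quartiles over genes overlapped, at 43.2% and 63.5% in members and 35.2% and 56.9% in the genes at 20% or less. In the 20 kb after the gene end the medians were 47.6%, 47.1% and 48.1%. The nearest upstream gene lay within 10 kb and on the opposite strand for 41 of 131 members (31.3%) and 264 of 588 comparison genes (44.9%), and the part of such neighbours in the upstream values was not tested. In upstream flanks free of any annotated gene the share, pooled over genes, was 51.7% ± 1.02 (SD, n = 20 libraries) around 39 members. Around 146 genes at 20% or less that pooled share ran from 40.6% to 43.3% over the 20 libraries. Around 605 of all genes tested it ran from 43.6% to 45.6%. These library values all read the same flanks, so their spread does not measure the spread between genes.

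Reads per insertion, which the choice of genes did not use, ran in opposite directions in the groups. In members an insertion in the gene's orientation had 1.17 ± 0.0329 times the reads of one in the opposite orientation (SD, n = 20 libraries), with the lowest library at 1.06. In the genes at 20% or less the ratio was 0.868 ± 0.0262, with the highest library at 0.912, so the library values of the groups did not overlap. Gene by gene, the gene-orientation insertions had fewer reads in 47 of 131 members (35.9%), 448 of 588 comparison genes (76.2%) and 63.9% of all genes tested. In the 2 libraries that chose nothing the pooled member ratio was 1.10 and 1.11. Over single genes the median ratio was 1.08 in members, below the pooled 1.17, and 0.871 in the comparison group. The ratio was 2.09 for CYB561, 2.16 for C10orf71 and 1.43 for TMEM244. It was below 1 for SPATA16 (0.913), the member with the most insertions, for KCNE4 (0.909) and for TXNDC2 (0.802). Insertions with a single read made up 31.0% ± 7.90 in the gene's orientation and 34.0% ± 8.28 in the other in members, and 39.2% ± 8.43 and 35.7% ± 8.38 in the comparison group.

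Few members were on the function lists, which were drawn up with earlier results of these data known. Of the 12 tested genes of the erythroid and leukemia list 1 was a member, RHAG, a red cell membrane glycoprotein of the Rh complex, and 4 were at 20% or less. Of 13 chromatin and transcription genes none was a member and 8 were at 20% or less, and of 11 genes of RNA processing and protein turnover none was a member and 9 were at 20% or less. Among 10 lymphoid and myeloid immune genes SLAMF6, a lymphocyte receptor (55.2%), was a member and none was at 20% or less. Among 17 genes of muscle and extracellular matrix COL8A1, a collagen chain (54.3%), was a member. The lists of neuronal adhesion (3 tested) and of neuronal receptors and channels (8 tested) held no member, and all of their tested genes lay between. The counts are too few to set against the shares over all genes tested, 6.89% at 50% or more and 30.9% at 20% or less, and the 4 of 12 of the erythroid and leukemia list (33.3%) is near the latter.

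Gene families were taken by symbol and are read against the same 6.89% and 30.9% of all genes tested. Symbols beginning KCN, which name potassium channel subunits and a few relatives, had 3 of 11 tested genes among the members (27.3%), KCNE4, KCNMB4 (51.7%) and KCNA2 (55.5%). The olfactory receptors had 2 of 6 (33.3%), OR52A5 and OR4K17 (63.3%), and TMEM symbols, which name transmembrane proteins with no shared function, had 7 of 26 (26.9%), namely TMEM244, TMEM156, TMEM9 (59.4%), TMEM60 (57.2%), TMEM219 (55.2%), TMEM218 (52.8%) and TMEM114 (51.2%). Zinc finger symbols beginning ZNF had 2 of 27 (7.41%), ZNF611 (66.5%) and ZNF782 (50.4%), with 9 at 20% or less (33.3%), and SLC transporters had 2 of 32 (6.25%), SLC7A7 (54.1%) and SLC35G1 (51.1%). The ZNF and SLC counts of members are near the background. The KCN, olfactory receptor and TMEM counts are higher but rest on few genes and were not tested. Of their genes that overlap no other annotated gene, 11 of 32, 6 of 276 and 26 of 76 held at least 500 insertions. COL symbols had 1 of 9 (COL8A1) and cadherin symbols none of 3. The genes with the lowest gene-orientation share were CCT7, a chaperonin subunit (0.967%), CHMP4B, an ESCRT-III subunit (1.47%), and TOMM7, of the mitochondrial import pore (2.27%). The comparison genes with the most insertions were the kinase gene MAPK8 (15.5% of 14770), AFDN, a junction scaffold (8.72% of 13746), USP24, a deubiquitinase (13% of 10550), PRMT3, an arginine methyltransferase (18.1% of 9271), MINDY3, a deubiquitinase (9.70% of 8846), and RPS6KC1 (15.1% of 8800).

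Pooled over the 131 members, the gene-orientation share averaged 54.4% ± 0.601 over the 10 hyPBase libraries and 54.6% ± 0.476 over the 10 hyPBase-centrip libraries (errors are SDs), a difference of 0.258 percentage points with a standard error of 0.243. Both helpers separately were at 50% or more in 99 of 131 members. In the comparison group the shares were 13.2% ± 0.269 and 14.4% ± 0.353. The odds of the gene's orientation between helpers were tested in every gene with edgeR's quasi-likelihood test. Over all 1900 genes 2.21% passed an adjusted p of 0.05, 2.11% with a higher and 0.105% with a lower share under hyPBase-centrip, and the median log2 odds ratio over all genes was 0.105. Among the members 3 passed, 2 higher and 1 lower.

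LIG4, the ligase of non-homologous end joining, had 35.9%, 45.0% and 55.8% as its lowest, median and highest hyPBase library and 51.9%, 59.2% and 76.5% with hyPBase-centrip. Its log2 odds ratio was 0.97 with a standard error of 0.20 and an adjusted p of 0.000375 in edgeR, and the ranges overlapped. It was a member only by its hyPBase-centrip libraries (61.4% pooled against 44.6%). TMEM218, a ciliary membrane protein, went the same way (34.3%, 47.2% and 59.4% against 51.9%, 59.2% and 67.4%, log2 odds ratio 0.75, standard error 0.22, adjusted p 0.0398 in edgeR). TMEM218 too was a member only by its hyPBase-centrip libraries (58.8% pooled against 45.8%). RHAG went the other way, from 53.6%, 55.2% and 59.9% with hyPBase to 46.3%, 51.1% and 53.2% with hyPBase-centrip (log2 odds ratio -0.27, standard error 0.06, adjusted p 0.00994 in edgeR), and its ranges did not overlap. With DESeq2 the calls for RHAG (adjusted p 0.0933) and TMEM218 (adjusted p 0.231) were lost and that for LIG4 was kept (adjusted p 0.0138). Over the other alternatives, all in edgeR, the adjusted p ran from 0.000123 to 0.00195 for LIG4, from 0.00994 to 0.0198 for RHAG and from 0.0398 to 0.0589 for TMEM218.

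The number of insertions per gene, tested in the same way, also differed in 3 members, 2 of which are described. Over all genes 1.74% passed, 0.632% higher and 1.11% lower with hyPBase-centrip. ARHGDIB, a regulator of small GTPases in blood cells, rose from 17.7, 20.6 and 27.0 CPM to 24.3, 27.9 and 37.7 (log2 fold change 0.42, standard error 0.08, adjusted p 0.000663 in edgeR). These values are the lowest, median and highest library of each helper, hyPBase first. CPM are insertions scaled to the library total with its TMM normalization factor. ARSI, an arylsulfatase, rose from 14.7, 17.6 and 23.6 to 19.5, 22.9 and 26.7 (log2 fold change 0.31, standard error 0.09, adjusted p 0.0323 in edgeR). The library ranges overlapped in both genes. With DESeq2 the call for ARSI (adjusted p 0.135) was lost, and that for ARHGDIB was kept (adjusted p 0.00715). Over the other alternatives, all in edgeR, the adjusted p ran from 0.000599 to 0.0024 for ARHGDIB and from 0.0273 to 0.0832 for ARSI.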

How the data were processed

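Insertions were mapped by Calling Cards in K562 libraries, 10 with hyPBase, 10 with hyPBase-centrip and 2 whose labels disagree. The deposited tables give, per the labels, insertions on hg38, and the submitters' processing notes name Trimmomatic, BWA and SAMtools (versions not given in the sources used here). The values used are the deposited read counts per insertion, made by the authors without normalization. Each line has a TTAA position, a read count, an orientation and a barcode. Lines are counted here, not reads, unless stated, and lines at repeated positions with different barcodes count separately.

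Genes and strands come from GENCODE 44 (hg38). The members, lists and tests were chosen with earlier results of these data known. A gene was named by a fixed rule: most insertions (12), highest share (6), longest and shortest (4 each), most and fewest insertions per TTAA (4 each), nearest 50% on either side (3 each), in the comparison group most insertions (6) and lowest share (3), the first 3 calls per direction in each fit, and every member on a list. Results for some genes named by this rule are not reported here. Lists and families were counted without tests. Flanks were 20 kb and the densest 1 kb was taken in fixed bins.

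Between helpers, edgeR 4.0.16 (R 4.3.3) was fitted to all 1900 genes with quasi-likelihood tests and Benjamini-Hochberg adjustment. Insertions per gene used TMM factors. Orientation used 40 columns, 2 per library, with a term per library, and tested orientation by helper. The fits were tested on simulated data first. The orientation fit recovered 11.6% of genes changed 1.25-fold in odds and 51.8% of those changed 1.5-fold. The insertion fit recovered 75.2% and 99.2% at these folds. A gene not called for orientation may therefore still differ. DESeq2 1.42.0 without independent filtering was an alternative, as were other counts, minimums and libraries. Replicates are separate libraries of pooled transfections, and p-values measure the spread between them, which may be technical.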

Additional observations from a re-analysis of the deposited data

Results flagged for a closer look

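Among the 88 groups of 10 libraries examined, 7 held a library far from the others by Dixon's criterion, where chance gives about 1 group in 20. The upstream 20 kb share of the members was 57.6% in hyPBase-centrip replicate 5, and that of the genes at 20% or less was 44.5% in hyPBase-centrip replicate 3. Among single genes, the gene-orientation share was 59.9% for RHAG in hyPBase replicate 2, 62.4% for TMEM244 in hyPBase replicate 5 and 64.2% for COL8A1 in hyPBase replicate 1. It was 85.7% for CHCHD1 in hyPBase-centrip replicate 3 and 46.4% for CCDC115 in hyPBase replicate 10.

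The 3 members named here, of 131, differed between helpers in the odds of the gene's orientation by the interaction test in edgeR, which 2.21% of all 1900 genes passed. LIG4 and TMEM218 were at 50% or more only through their hyPBase-centrip libraries, so their difference is tied to the choice of genes. The log2 odds ratio, hyPBase-centrip over hyPBase, was 0.974 for LIG4, 0.749 for TMEM218 and -0.267 for RHAG. In the 2 libraries whose labels disagree LIG4 had 50.0% of 28 insertions and 54.5% of 22, TMEM218 36.7% of 30 and 46.2% of 26, and RHAG 54.5% of 286 and 55% of 280.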

How the results depend on the processing

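The number of genes at 50% or more moved with the minimum of insertions and with how they were counted, which also changes how many genes pass the minimum. From 131 of 1900 it went to 66 of 967 with at least 3 reads per insertion, 57 of 1533 with barcodes collapsed within a library, 5 of 409 with distinct positions and orientations over the pooled libraries, 60 of 1244 without the first and last 5 kb of the gene and 76 of 1585 without its densest 1 kb. Minimums of 1, 200 and 1000 insertions gave 1409 of 5737, 284 of 3013 and 60 of 1117, and hyPBase or hyPBase-centrip libraries alone with the minimum kept at 500 gave 45 of 1034 and 64 of 1203. It was within 1.5 times of 131 under the remaining alternatives, among them 123 without hyPBase-centrip replicate 3, which was chosen after seeing the data.

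The median lengths (genes at 50% or more first, then genes at 20% or less, bp) were 54958 and 47449 with barcodes collapsed, 160752 and 107091 with distinct positions, 57121 and 55239.5 without the gene ends and 50044 and 45834 without the densest 1 kb, so the order turned in these 4. With minimums of 1 and 200 they were 6220 and 19907, and 20807.5 and 31451.5, and the order held. The comparison group alone moved to 46975 with at least 2 reads, 56785 with at least 3, 52506 with a minimum of 1000, 57103.5 with hyPBase only and 49310 with hyPBase-centrip only. Insertions per TTAA site were 6.00 and 2.72 with at least 2 reads, 5.63 and 2.11 with at least 3, 2.85 and 2.80 collapsed, 0.68 and 0.704 distinct, 4.68 and 3.39 without the densest 1 kb, 3.39 and 2.58 without the ends, and 2.86 and 3.23, 6.13 and 4.02, and 11.0 and 4.30 at minimums of 1, 200 and 1000. With a single helper they were 3.75 and 1.95 (hyPBase) and 3.92 and 2.22 (hyPBase-centrip) at a minimum of 250, and 5.56 and 2.04, and 5.51 and 2.26 at 500, where fewer libraries lower the value by construction. The order of the densities turned with distinct positions and at a minimum of 1. The comparison group had 4.01 without hyPBase-centrip replicate 3. The cause of the turned orders was not tested. The share of genes at 20% or less went from 30.9% to 34.2% with at least 3 reads, 24.8% collapsed, 4.89% distinct, 33.9% and 33.7% with hyPBase only (minimums of 250 and 500), 24.9% at a minimum of 1 and 38.7% without the ends.

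The member ratio of reads was 1.38 with barcodes collapsed, and the ratio of the shares of single-read insertions was 0.911. Upstream of the members the pooled share was 56.1% in 20 kb, 53.6% in 10 kb, 53.5% in 50 kb and 51.7% in flanks free of annotated genes. Downstream it was 48.5%, 47.5% in 10 kb and 50.2% in free flanks, the last on the other side of 50%.

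Between helpers, DESeq2 called 4 genes for insertions and 6 for orientation, where edgeR called 33 and 42, and 1 member in each. All genes with at least 1 insertion gave 15 calls for insertions, and at least 2 reads per insertion gave 18 for orientation among the 1416 genes left. A replicate block gave 27 and 38 calls over all genes, 2 and 3 of them members, with ARSI lost at an adjusted p of 0.0542 in edgeR. Same-numbered libraries did not deviate together (correlations of -0.0475 to 0.0747 for insertions and -0.0247 to 0.0246 for orientation, 0 of 10 pairs over 0.1). Libraries of 1 helper differed by about sampling alone (median chi-square per degree of freedom 0.985), which keeps such correlations low in any case. They therefore cannot show whether the numbers mark a pairing. The pooled member difference between helpers was 0.258 percentage points with the block too. Depth limits the values of single genes in a library, as the library with the fewest insertions held a median of 24 in members.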
